A study of Sus scrofa with 12 samples.

Results

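The small heat shock proteins are chaperones built around a shared alpha-crystallin domain, and 7 of their genes that are known from muscle were looked for by gene name: HSPB1, HSPB2, HSPB3, HSPB6, HSPB7, HSPB8 and CRYAB. Of these, 6 were listed by name among the 23271 genes of the deposited table, and HSPB2 was not analysed here. The set was chosen by the high FPKM of HSPB1 and CRYAB in a few libraries of both breeds, so those high values are given as a description and support nothing. FPKM is a read count divided by gene length and by library total. Levels of different genes can thus be set side by side only as far as the lengths used are right.

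The transcripts came from the longissimus dorsi, a long back muscle, of Laiwu pigs, a Chinese breed known for fat-rich muscle, and of Yorkshire pigs, a lean Western breed. The study compared the breeds at the same body weight, with no treatment named, and each contributed 6 of the 12 libraries. The question put to the data is whether the breeds differ in these genes. Age, sex and the animal behind each library are not in the labels, so p-values measure only the spread between these samples, which may be technical.

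Small heat shock proteins bind partly unfolded proteins without using ATP and hold them until the large, ATP-driven chaperones refold them or the cell degrades them. In striated muscle they are abundant, move to the Z-discs and intermediate filaments under load, and are known as protectors of desmin, filamin C and actin. Several of them are targets of the heat shock factors, the transcription factors that respond to unfolded protein, and mutations in HSPB1, HSPB8 and CRYAB cause inherited disease of muscle or of its nerves.

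Depth was 54961358 to 67285809 counts per library. The libraries did not group by breed, since for 9 of 12 the nearest library in log2 CPM belonged to the other breed. Yorkshire 5 stood apart from the rest, with a median distance to the others of 0.654 where the other 11 libraries had 0.355 to 0.463. It was also the library in which long genes were lowest relative to the other libraries, with a Spearman correlation of level with gene length of -0.425 across genes, against -0.147 to 0.154 elsewhere. Laiwu 5 and Yorkshire 3 were each other's nearest library although they come from different breeds. The muscle markers ACTA1, CKM and DES were high in every library, and ACTA1, the skeletal actin gene, ran from 34173 to 50541 FPKM. In whole tissue, fewer cells of a type and less RNA per cell cannot be told apart.

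HSPB1, HSPB8 and CRYAB were the 3 abundant genes of the family in this muscle, and all 3 had their highest levels in the same 3 libraries: Laiwu 5, Yorkshire 3 and Yorkshire 5. HSPB6 had an intermediate level, and HSPB7 and HSPB3 were much lower in FPKM. No gene of the family passed edgeR's test between the breeds, and for none were the breeds free of overlap. These counts of 0 of 6 stand beside 0% of all 11205 tested genes called by edgeR and 0.178% of them without overlap between the breeds. On the scale of log2(FPKM + 1), fitted with limma, the fold changes of the abundant genes were smaller than those by edgeR, with -0.61 for HSPB1, -0.41 for HSPB8 and -0.29 for CRYAB.

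**Figure D1:**
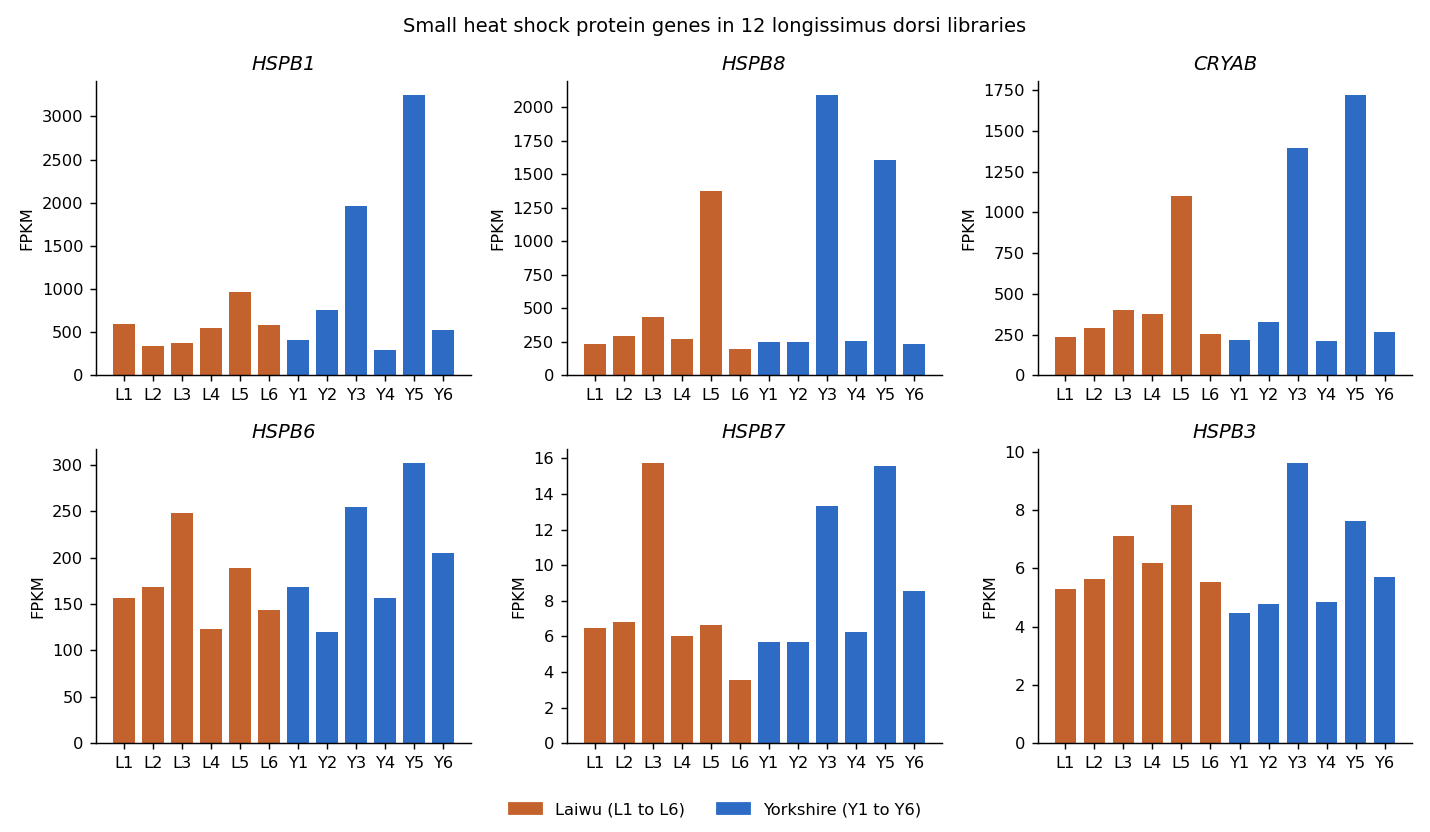
FPKM of the 6 small heat shock protein genes in each of the 12 libraries, 1 bar per library, Laiwu in orange (L1 to L6) and Yorkshire in blue (Y1 to Y6), each panel on its own linear axis from 0. HSPB1, HSPB8 and CRYAB are highest in Y3, Y5 and L5, whereas HSPB7 is highest in L3.

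HSPB1 encodes the actin-binding chaperone also known as Hsp27, which is phosphorylated by the kinase MAPKAPK2 downstream of p38. The gene (ENSSSCG00000039962) lies on the minus strand of chromosome 3 at 10037949 to 10039704 in Sscrofa11.1. In Laiwu its FPKM was 593.3, 340.8, 378.5, 552.6, 970.7 and 582.3 in libraries 1 to 6. In Yorkshire it was 408.6, 762.6, 1961, 294.1, 3247 and 528.3 in the same order of numbers. The 2 highest libraries were Yorkshire 5 and Yorkshire 3, and the third was Laiwu 5. The lowest of all was also a Yorkshire library, Yorkshire 4. HSPB1 had the shortest length of the 6 genes as implied by counts and FPKM, 0.88 kb. Yorkshire 5 was the library with the correlation of level with gene length of -0.425. Whether length bears on the HSPB1 level there was not tested. The means were 569.7 ± 224.0 FPKM (SD, n = 6) in Laiwu and 1200.3 ± 1171 (SD, n = 6) in Yorkshire. The log2 fold change, Laiwu minus Yorkshire, was -1.10 ± 0.57 (SE), with an adjusted p of 0.912 by the quasi-likelihood test of edgeR, with Benjamini-Hochberg adjustment over all tested genes. An exact two-sided permutation test of log2(FPKM + 1) gave an unadjusted p of 0.340, where the unadjusted p of edgeR was 0.077. Without Yorkshire 5 the log2 fold change was -0.44, and without Laiwu 5, Yorkshire 3 and Yorkshire 5 it was -0.08.

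CRYAB encodes alpha-B-crystallin, a chaperone of desmin filaments that is also a protein of the eye lens. The gene (ENSSSCG00000036724) is on chromosome 9, minus strand, at 39638506 to 39643162. Laiwu libraries 1 to 6 had 238.5, 288.5, 402.7, 379.8, 1099.7 and 253.5 FPKM. Yorkshire libraries 1 to 6 had 218.5, 327.3, 1398, 212.8, 1719.9 and 264.8 FPKM. Laiwu 5, Yorkshire 3 and Yorkshire 5 stood apart from the other 9 libraries, which reached at most 402.7 FPKM, so each breed held both high and low libraries. Laiwu averaged 443.8 ± 328.2 FPKM (SD, n = 6) and Yorkshire 690.2 ± 681.8 (SD, n = 6). The log2 fold change was -0.65 ± 0.63 (SE), with an adjusted p of 0.918 by edgeR and p = 0.747 by the exact two-sided permutation test. It was -1.15 without Laiwu 5, -0.07 without Yorkshire 5 and 0.23 without all 3 of the high libraries, so its sign rested on those libraries.

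HSPB8 encodes the chaperone that works with the co-chaperone BAG3 in chaperone-assisted selective autophagy, the pathway that removes filamin C damaged by contraction. The gene (ENSSSCG00000009844) is on chromosome 14, minus strand, at 33626120 to 33640792. Its FPKM was 237.3, 296.3, 433.4, 269.9, 1376 and 197.0 in Laiwu 1 to 6. In Yorkshire 1 to 6 it was 246.4, 250.4, 2091, 254.2, 1606 and 236.8. The same 3 libraries were high again, here with Yorkshire 3 above Yorkshire 5, and 4 Yorkshire libraries lay within 236.8 to 254.2 FPKM. The mean was 468.3 ± 451.7 FPKM (SD, n = 6) in Laiwu and 780.8 ± 841.3 (SD, n = 6) in Yorkshire. The log2 fold change was -0.73 ± 0.71 (SE), with an adjusted p of 0.918 by edgeR and p = 0.636 by the exact two-sided permutation test. Leaving out Laiwu 5 moved it to -1.43, leaving out Yorkshire 3 to -0.24, leaving out Yorkshire 5 to -0.32, and leaving out all 3 to 0.17.

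HSPB6 encodes Hsp20, a partner of HSPB1 and CRYAB in mixed oligomers and a target of protein kinase A. The gene (ENSSSCG00000023498) is on chromosome 6, minus strand, at 45181443 to 45183998. In Laiwu it had 123.1 FPKM at the lowest, 162.3 at the median and 248.4 at the highest. The Yorkshire values were 119.5, 186.3 and 301.8 FPKM in the same order. Yorkshire 5, Yorkshire 3 and Laiwu 3 were the 3 highest, and Laiwu 5, with 188.2 FPKM, lay below Yorkshire 6 with 204.8. The spread was thus smaller than for the abundant genes, with the highest library at 2.53 times the lowest. The means were 171.3 ± 43.7 FPKM (SD, n = 6) in Laiwu and 200.7 ± 67.4 (SD, n = 6) in Yorkshire, and the log2 fold change was -0.25 ± 0.21 (SE), with an adjusted p of 0.912 by edgeR. It was -0.07 without Yorkshire 5 and 0.0016 without the 3 libraries that were high in CRYAB. The exact two-sided permutation p was 0.429.

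HSPB7, the cardiovascular heat shock protein, is expressed in heart and skeletal muscle and is required for intact thin filaments in mice. The gene (ENSSSCG00000041935) lies on the same chromosome as HSPB6, minus strand, at 75166992 to 75175013. Its Laiwu libraries held 3.58 FPKM at the lowest, 6.57 at the median and 15.7 at the highest. Yorkshire held 5.68, 7.38 and 15.6 FPKM. The highest library was Laiwu 3, followed by Yorkshire 5 and by Yorkshire 3 with 13.3 FPKM. Laiwu 5, high in the abundant genes, had only 6.67 FPKM, next to the Laiwu median. The means were 7.55 ± 4.19 FPKM (SD, n = 6) in Laiwu and 9.18 ± 4.28 (SD, n = 6) in Yorkshire. The log2 fold change was -0.31 ± 0.35 (SE), with an adjusted p of 0.920 by edgeR and an exact two-sided permutation p of 0.461. Without Laiwu 3 it was -0.64, without Yorkshire 5 it was -0.06, and without Laiwu 5, Yorkshire 3 and Yorkshire 5 it was 0.18.

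HSPB3 is the partner of HSPB2 in a complex formed during muscle differentiation. The gene (ENSSSCG00000036059) is on chromosome 16, plus strand, at 33716626 to 33719018, and was the lowest of the 6 with a mean of 6.25 FPKM. Laiwu ran from 5.29 FPKM through a median of 5.90 to 8.17. Yorkshire ran from 4.48 through 5.27 to 9.62. Despite the low level, its 3 highest libraries were Yorkshire 3, Laiwu 5 and Yorkshire 5, and the fourth was Laiwu 3 with 7.12 FPKM. Its lowest library held 665 counts. The breeds averaged 6.32 ± 1.12 FPKM (SD, n = 6) in Laiwu and 6.18 ± 2.04 (SD, n = 6) in Yorkshire, and the log2 fold change was 0.02 ± 0.18 (SE), with an adjusted p of 0.992 by edgeR. The exact two-sided permutation p was 0.751, and the sign of the fold change turned when any of 5 single libraries was left out.

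**Figure D2:**
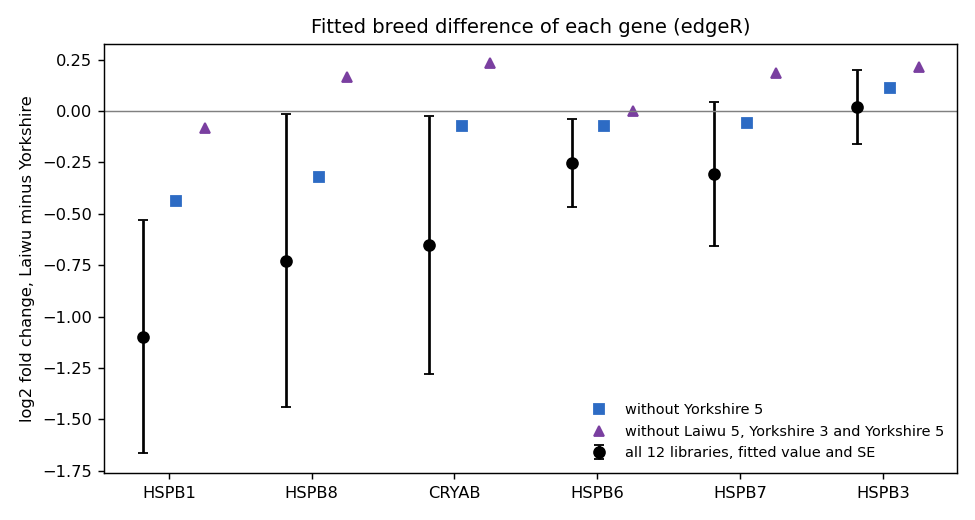
Log2 fold change, Laiwu minus Yorkshire, fitted by edgeR for each of the 6 genes. Black points with bars are the values and SE over 12 libraries, blue squares the values without Yorkshire 5 and purple triangles those without Laiwu 5, Yorkshire 3 and Yorkshire 5, which lie between -0.08 and 0.23.

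Within a library the order of the family was only partly fixed. HSPB1 exceeded HSPB8 in 9 of 12 libraries, by a median ratio of FPKM of 1.83 with a range of 0.706 to 3.05. HSPB8 and CRYAB had no fixed order, since each was the higher in 6 of 12 libraries and their median ratio was 1.01. CRYAB exceeded HSPB6 in 12 of 12 libraries, by a median of 1.74 and a range of 1.29 to 5.84. The step from HSPB6 to HSPB7 was the widest, with a median ratio of 24.1 and a range of 15.8 to 40.1. HSPB7 exceeded HSPB3 in 9 of 12 libraries, with a median ratio of 1.25, so these neighbours also changed places.

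The 6 genes together took 0.565% of all counts in Laiwu 5 (95% Wilson interval 0.563% to 0.567%). The share was 0.855% in Yorkshire 3 (0.853% to 0.858%) and 0.930% in Yorkshire 5 (0.928% to 0.932%). In the other 9 libraries it ran from 0.139% to 0.231%, and these intervals cover counting error only. HSPB1 was the 17th gene by FPKM in Yorkshire 5, the 26th in Yorkshire 3 and the 41st in Laiwu 5, and between the 45th and the 93rd elsewhere. The make-up of the family differed too. HSPB6 supplied 4.37% to 5.16% of the family's summed FPKM in those 3 libraries and 8.13% to 16.9% in the other 9. HSPB8 supplied most in Laiwu 5, where it made up 37.7%, whereas HSPB1 made up 47.1% in Yorkshire 5 and 51.9% in Yorkshire 2, a library with a low total.

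The spread of the abundant genes between libraries of 1 breed was among the widest in this muscle. The within-breed SD of log2 CPM was 1.25 for HSPB8, and 1.47% of the 11205 tested genes had a larger one. It was 1.12 for CRYAB and 1.03 for HSPB1, with 2.01% and 2.43% of genes above them, while the median over all tested genes was 0.285. HSPB7 had an SD of 0.66, HSPB6 of 0.41 and HSPB3 of 0.33, with 8.50%, 26.1% and 39.8% of genes above them. Over the 9 libraries other than Laiwu 5, Yorkshire 3 and Yorkshire 5, the SD of HSPB8 was 0.30 and that of CRYAB 0.34. The SDs over 9 libraries pooled the breeds and are not within-breed values. In those 9 libraries HSPB7 and HSPB1 varied most within the family, with SDs of 0.57 and 0.49, and the all-gene median was 0.233. The spread of HSPB1 and CRYAB is what the choice of genes used, and no test was made of it.

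For 4 of 6 genes, HSPB1, HSPB8, CRYAB and HSPB3, the 3 highest libraries were Laiwu 5, Yorkshire 3 and Yorkshire 5. The same held for 6.98% of the 11205 tested genes, or 782 genes. HSPB1 and CRYAB were chosen for this pattern, so nothing is read from the count. Of the other 4 genes, HSPB8 and HSPB3 showed it and HSPB6 and HSPB7 did not.

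Pearson correlations between members were computed on log2 CPM over the 12 libraries after removing each breed's mean. They are descriptions, and all of them share the same libraries and the same scaling. Over 9 libraries the breed means were not removed, so those values also carry any breed difference. HSPB8 and CRYAB had r = 0.97 (n = 12), with 0.97 in each breed and 0.64 over the 9 libraries other than the 3 high ones. HSPB1 and CRYAB had r = 0.90, with 0.61 in Laiwu, 0.98 in Yorkshire and 0.34 over the 9. For HSPB1 and HSPB8 the value of 0.80 over 12 libraries became -0.33 over the 9, so that relation rested on the 3 high libraries. CRYAB and HSPB3 had 0.94 over 12 and 0.77 over the 9. HSPB6 and HSPB7 had r = 0.87 over 12 libraries and 0.79 over the 9, and each had 0.73 with HSPB3 over the 12. Among 4651 other genes that averaged 5 FPKM or more, HSPB7 stood in place 23 by likeness to HSPB6. HSPB6 stood in place 15 by likeness to HSPB7. For HSPB7 and HSPB8 the value was higher over the 9 libraries, 0.90, than over the 12, 0.63. Laiwu 3 was the highest of the 9 libraries for both of these genes.

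**Figure D3:**
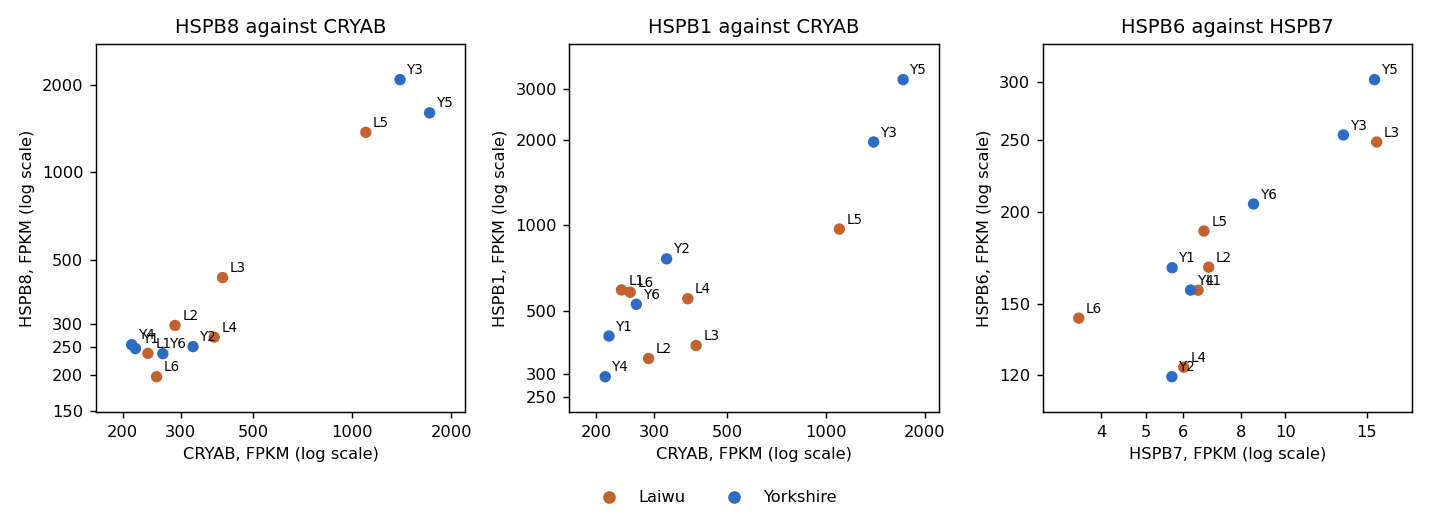
FPKM of HSPB8 against CRYAB, HSPB1 against CRYAB and HSPB6 against HSPB7, 1 point per library on log axes, Laiwu in orange and Yorkshire in blue. L5, Y3 and Y5 lie apart at the upper right in the first panel, while in the third panel L5 lies with the libraries of low HSPB7 and L3 beside Y3 and Y5.

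The genes most like CRYAB were found by the same correlation. Over 4651 other genes that averaged 5 FPKM or more, the 5 nearest to CRYAB after the members were HSPH1 (r = 0.98), TCP1 (0.98), HSPD1 (0.98), BAG3 (0.98) and TRIM8 (0.97). HSPH1 is a nucleotide exchange factor of Hsp70, TCP1 a subunit of the cytosolic chaperonin, HSPD1 the mitochondrial chaperonin and TRIM8 a ubiquitin ligase. Over the 9 libraries other than the 3 high ones, with breed means not removed, HSPH1 kept r = 0.92. HSPD1 had 0.78, BAG3 0.77, TRIM8 0.75 and TCP1 0.69. HSPB8 stood in place 10, HSPB3 in place 35, HSPB1 in place 101, HSPB6 in place 651 and HSPB7 in place 734.

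HSPB1 had other nearest genes. These were TUBB2B (r = 0.97), a beta-tubulin, CACYBP (0.96), a calcyclin-binding protein, CLTA (0.96), a clathrin light chain, AHSA1 (0.96), an activator of Hsp90, and CCT7 (0.96), another chaperonin subunit. Over the 9 libraries, with breed means not removed, their r was 0.83 to 0.92. CRYAB was in place 66, HSPB3 in place 260 and HSPB8 in place 278. With r of at least 0.9, HSPB1 had 56 genes (1.20%), CRYAB 90 (1.94%), HSPB8 94 and HSPB3 77, but HSPB6 only 4 and HSPB7 only 6. With r of -0.9 or below, HSPB1 had 64 genes, CRYAB 51, HSPB8 52, HSPB3 38, HSPB6 8 and HSPB7 3.

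The other genes of the pathway were taken from lists. Among further genes listed with the family by symbol, HSPB11 ran from 0.936 to 3.08 FPKM with its highest value in Yorkshire 5. Whether its protein has the alpha-crystallin domain was not examined. HSPB9, a gene known from testis, averaged 0.0256 FPKM and CRYAA, the alpha-A-crystallin of the lens, 0.0183 FPKM, both listed at 0 in most libraries.

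The list of heat shock factors gave 4 tested genes: HSF1, HSF2, HSF4 and HSBP1, which encodes a binding protein of the factors and not a factor. All 4 had fold changes below 0, and none passed edgeR's test (median log2 fold change -0.20, against -0.0013 over all tested genes). HSF1, the main factor of the heat shock response, ran from 19.0 FPKM in Laiwu 3 to 35.8 in Yorkshire 5. HSF4 was lowest in Laiwu 5 with 7.78 FPKM and highest in Yorkshire 5 with 15.1. HSF2 was the only 1 of the 4 whose highest libraries were Laiwu 5 (10.5 FPKM), Yorkshire 3 (11.3) and Yorkshire 5 (8.76), against 5.27 to 6.74 elsewhere. That pattern held for 6.98% of all tested genes.

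Of the large chaperones and co-chaperones, 11 of 17 tested genes had their highest levels in Laiwu 5, Yorkshire 3 and Yorkshire 5, against 6.98% of all tested genes. These were AHSA1, DNAJA1, DNAJA4, FKBP4, HSP90AB1, HSPA4, HSPA8, HSPD1, HSPE1, HSPH1 and STIP1. HSPA8, the constitutive Hsp70, had 352.6, 407.8 and 356.1 FPKM in those libraries and 147.4 to 239.7 in the other 9. HSP90AB1, the constitutive Hsp90, had 304.1, 317.9 and 298.6 FPKM against 123.0 to 211.5. DNAJA4, an Hsp40 whose values were singled out after they were seen, had 42.5, 56.6 and 39.7 FPKM against 4.26 to 8.00. DNAJB1, an inducible Hsp40 singled out in the same way, did not share the pattern. Its highest library was Laiwu 2 with 60.0 FPKM, and Laiwu 5, Yorkshire 3 and Yorkshire 5 had 21.3, 19.3 and 22.1. None of the 17 passed edgeR's test between breeds (3 fold changes above 0 and 14 below, median -0.12), and HSPA1A, HSPA1B, HSPA2 and HSP90AA1 were not analysed here. The median had the opposite sign, 0.14, without the 3 high libraries.

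Among the 9 partners of chaperone-assisted selective autophagy, BAG3 and FLNC had the pattern of HSPB8, which 6.98% of all tested genes had. BAG3, which bridges HSPB8 and Hsp70, had 120.8 FPKM in Laiwu 5, 146.2 in Yorkshire 3 and 137.9 in Yorkshire 5, and 31.5 to 67.7 elsewhere. FLNC, the filamin C that this pathway clears, had 1289.9, 1379 and 731.1 FPKM in the same order, and 230.2 to 507.3 elsewhere. SQSTM1, the autophagy receptor p62, was highest in Laiwu 3 with 306.3 FPKM, as HSPB7 was. It was next highest in Yorkshire 3 (271.2), Yorkshire 5 (243.6) and Laiwu 5 (221.8), and the remaining libraries reached at most 169.3 FPKM. None of the 9 passed edgeR's test (5 above 0 and 4 below, median log2 fold change 0.0072).

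The list of kinases linked to small heat shock proteins held 10 genes, with 2 fold changes above 0, 8 below and none past edgeR's test (median -0.13). Whether each of them phosphorylates a small heat shock protein was not examined. DMPK, the kinase whose gene carries the repeat of myotonic dystrophy, had 95.9, 131.1 and 121.4 FPKM in Laiwu 5, Yorkshire 3 and Yorkshire 5 and 50.8 to 93.4 elsewhere. MAPK12, the muscle isoform of p38, ran from 78.6 FPKM in Laiwu 3 to 168.0 in Yorkshire 5, and its 3 highest libraries were not those of CRYAB.

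Filament and Z-disc clients gave 15 tested genes, 6 above 0 and 9 below, with none past edgeR's test (median -0.10, and 0.22 without the 3 high libraries). ACTN3, the fast-fibre alpha-actinin, ran from 2692 FPKM in Laiwu 3 to 3709 in Laiwu 1, and Laiwu 5, Yorkshire 3 and Yorkshire 5 lay inside that range. Those with the pattern of CRYAB, seen in 6.98% of all tested genes, were ANKRD1, ANKRD2 and XIRP1. These 3 are known as genes that respond to load or injury, and were singled out after their values were seen. ANKRD1 had 72.6 FPKM in Laiwu 5, 269.4 in Yorkshire 3 and 129.9 in Yorkshire 5, and 8.32 to 55.7 elsewhere. XIRP1 had 195.4, 302.4 and 166.6 FPKM against 21.9 to 78.1.

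**Figure D4:**
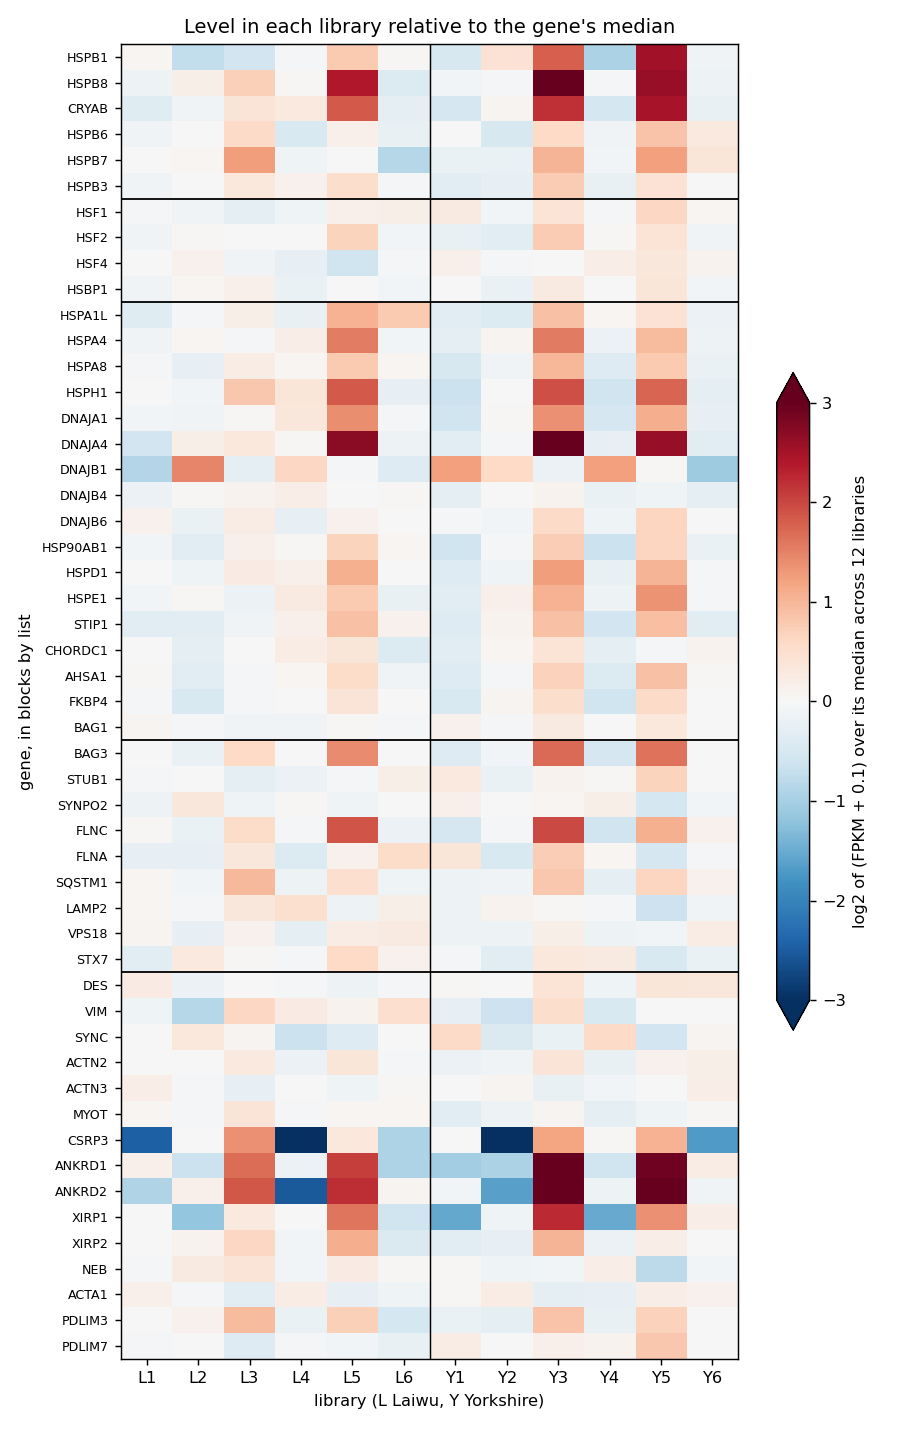
Log2 of FPKM + 0.1 over the gene's median across the 12 libraries, in blocks from the top for the 6 small heat shock protein genes, heat shock factors, large chaperones, partners of selective autophagy, and filament and Z-disc clients, with the colour scale saturated beyond 3 in either direction. Columns L5, Y3 and Y5 are the 3 highest for 11 of 17 large chaperones, for BAG3 and FLNC and for ANKRD1, ANKRD2 and XIRP1. The colour is weak for some of these, such as FKBP4. SQSTM1 and PDLIM3 are also above their medians in these columns, but are highest in L3. In the heat shock factor block, which also holds HSBP1, only HSF2 has its 3 highest values in these columns.

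Markers of fibre types and other cells were read in the same libraries, and their part in the levels of the small heat shock genes was not tested. Slow-fibre markers had a summed level of 735.1 to 3098 FPKM in Laiwu and 1681 to 3745 in Yorkshire. Laiwu 5 (3098), Yorkshire 3 (2881) and Yorkshire 5 (3745) were above the other 9 libraries (735.1 to 2757). Of the 10 markers, 3 had their highest values in these libraries, TNNC1, TNNI1 and TPM3, against 6.98% of all tested genes. TNNC1, the slow troponin C, had 586.9, 599.1 and 872.9 FPKM there, whereas MYH7, the slow myosin, had 1321, 1034 and 1079 against up to 1141 elsewhere. None of 10 fast-fibre markers had that pattern, but 2 of the 10, MYH1 and ATP2A1, were lowest in these libraries. The same 3 libraries were lowest for 458 of the 11205 tested genes. MYH1 had 2748, 2506 and 2127 FPKM there against 3425 to 7985 elsewhere. ATP2A1 had 2461, 2108 and 2271 FPKM against 2951 to 3822. The sum of the fast-fibre markers was 38956 to 50575 FPKM in Yorkshire and 40557 to 47829 in Laiwu. Immediate early genes, which rise within minutes of a stimulus, summed to 599.2, 715.2 and 623.4 FPKM in Laiwu 5, Yorkshire 3 and Yorkshire 5. They summed to 221.7 to 508.6 in the other 9, and 5 of 12 of them had the pattern, against 6.98% of all tested genes. The sum of the immediate early genes was 329.7 to 599.2 FPKM in Laiwu and 221.7 to 715.2 in Yorkshire.

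None of 9 endothelial markers and none of 8 smooth muscle and pericyte markers had the pattern, and 1 of 7 macrophage markers, CD163, did. As 6.98% of all tested genes had it, nothing is read from the counts of such short lists. LMOD1, of the smooth muscle list, was instead lowest in Laiwu 5, Yorkshire 3 and Yorkshire 5, with 12.2, 10.4 and 12.6 FPKM against 14.1 to 21.6 elsewhere. Those libraries were lowest for 458 of the 11205 tested genes. The endothelial sum was 36.9 to 56.8 FPKM in Laiwu and 35.5 to 62.9 in Yorkshire, and the smooth muscle sum 89.2 to 132.0 and 85.1 to 142.8. Macrophage markers summed to 13.6 to 42.0 FPKM in Laiwu and 14.4 to 35.8 in Yorkshire. Adipocyte markers summed to 29.4 to 160.1 FPKM in Laiwu and 20.7 to 58.7 in Yorkshire, with none of 5 highest in those libraries. In Laiwu 5, Yorkshire 3 and Yorkshire 5 the sums of smooth muscle, macrophage and adipocyte markers lay inside the range of the other 9 libraries, and the endothelial sum did in Laiwu 5 (41.2) and Yorkshire 3 (47.0) but was the lowest of all in Yorkshire 5 (35.5). No tested marker was listed at 0 in any library.

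At 2 loci an overlapping gene on the other strand bears on the counts, because no source used here says whether counting used strand. ENSSSCG00000037567, on the plus strand of chromosome 3 at 10038386 to 10039952, overlaps 1319 of the 1756 bases of HSPB1 and ran from 1.45 FPKM in Laiwu 3 to 62.3 in Yorkshire 1. Its levels were far below those of HSPB1. In the 3 libraries where HSPB1 was highest it had 47.5 FPKM in Yorkshire 5, its second highest value, 18.6 in Yorkshire 3 and 5.64 in Laiwu 5. ENSSSCG00000015027, on the plus strand of chromosome 9 at 39623884 to 39660648, spans all 4657 bases of CRYAB and had 4.57 FPKM in Laiwu 1 to 10.9 in Yorkshire 5, which was also the highest library for CRYAB. HSPB2 also overlaps CRYAB, by 3046 bases in the RefSeq annotation of Sscrofa11.1, and how reads of the shared stretch were assigned was not analysed here.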

How the data were processed

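Poly(A) RNA of longissimus dorsi was sequenced in 6 Laiwu and 6 Yorkshire libraries. Per the series' design text, reads were filtered with FastQC and aligned with HISAT2 2.2.1 to Sscrofa11.1. Further tools named in the submitters' processing notes, with no role stated, are StringTie 1.3.4d, cutadapt 1.9, edgeR and DESeq2. The annotation release, filters and counting settings: not given in the sources used here. The kit marks strand with dUTP, per the labels' protocols. The deposited table holds a whole-number read count and an FPKM value per gene and library, per the file headers.

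The members and all gene lists were chosen with earlier results of these data known. Genes were matched by symbol, and a gene name table supplied symbols for 128 of the 8541 IDs that lacked one. Counts of the 11205 genes averaging 0.5 FPKM or more were fitted with edgeR 4.0.16 (TMM, robust quasi-likelihood, Laiwu minus Yorkshire, no covariate), with Benjamini-Hochberg adjustment over those genes and a threshold of 0.05. The SE is the fold change divided by the square root of F. The fit was tested on simulated data. Exact two-sided permutation tests used the 924 assignments of 12 libraries, and the p-values given for each gene are unadjusted. Likeness was Pearson's r of log2 CPM (prior count 2), breed means removed, over genes of at least 5 FPKM. Correlations and SDs over 9 libraries were computed without removing breed means. The closest pair of libraries differed by 10.4 times sampling noise (median chi-square over genes with at least 50 counts). Thus no pair differed by sampling noise alone, and all were counted as separate samples. This value cannot show that they came from separate animals.

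The rule named all members, the 2 genes of highest mean FPKM in each list, as no gene passed the test, and the 5 genes most like HSPB1 and most like CRYAB. Other genes were singled out after their values were seen. The alternatives were limma 3.58.1 on log2(FPKM + 1) and log2(FPKM + 0.1), DESeq2 1.42.0, other filters, library size without TMM, a replicate block, the exact test and leaving out each library. Leaving out 3 libraries together was added after the data were seen. R 4.3.3, Python 3.11.15 and matplotlib 3.10.9 were used. No sequences are printed, since sequence tables were not used here.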

Additional observations from a re-analysis of the deposited data

Results flagged for a closer look

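Of 34 groups of 6 libraries tested for a single distant value (17 genes in each breed), 6 had one, by a gap to the nearest library that, as a share of the group's whole range, exceeded Dixon's limit for 6 values. Chance alone gives about 1 in 20 groups, but the 6 cannot be read against that share. HSPB1 and CRYAB were chosen for high values in a few libraries, so their groups are a description, and 5 of the 6 are the same library.

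Laiwu 5 was far above the other Laiwu libraries for HSPB8, with 1376 FPKM against 433.4 in the next (0.799 of the range). CRYAB, chosen for such values, had 1099.7 FPKM against 402.7 (0.809 of the range). Beyond the small heat shock genes the gap of Laiwu 5 also exceeded the limit for FLNC, with 1289.9 FPKM against 507.3 (0.794), for BAG3, with 120.8 FPKM against 67.7 (0.651), and for HSPA8, with 352.6 FPKM against 239.7 (0.630). Laiwu 5 was also the highest Laiwu library for HSPB1, with 970.7 FPKM, but there the gap did not reach the limit.

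For HSPB7 the distant library was a different one, Laiwu 3, with 15.7 FPKM against 6.83 in the next (0.733 of the range). In Yorkshire no group was found, but the gap looks for a single distant value. Where Yorkshire 3 and Yorkshire 5 were both high, each was the nearest to the other. For CRYAB they had 1398 and 1719.9 FPKM, and the other Yorkshire libraries at most 327.3. The result for Yorkshire therefore does not show that distant libraries were absent there.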

How the results depend on the processing

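Over 132 alternatives for the 6 genes, 123 kept the sign of the breed difference, 9 turned it and none passed the threshold (adjusted p of 0.538 and above). Leaving out Laiwu 5, Yorkshire 3 and Yorkshire 5 together turned HSPB8 (0.17), CRYAB (0.23), HSPB6 (0.0016) and HSPB7 (0.18), while HSPB1 had -0.08. Leaving out 1 library gave log2 fold changes of -0.0644 to 0.135 for HSPB3, which turned sign in 5 of 12 cases, -1.31 to -0.44 for HSPB1, -1.43 to -0.24 for HSPB8, -1.15 to -0.07 for CRYAB, -0.38 to -0.07 for HSPB6 and -0.64 to -0.06 for HSPB7. Medians of lists also turned. For the large chaperones they ran from -0.223 to 0.0358 with 1 library left out and were 0.14 without the 3. For the autophagy partners they ran from -0.0736 to 0.0838, and for the clients the median was 0.22 without the 3. The cause was not tested.

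edgeR called 0 of 11205 genes (498 at an unadjusted p under 0.05) and limma 0 (404), and DESeq2 called 1, CILP (569). Same-numbered libraries correlated between -0.27 and 0.33, so the numbers do not pair them. A replicate block in edgeR gave -0.63 for HSPB1, -0.40 for HSPB8, -0.30 for CRYAB, -0.22 for HSPB6, -0.32 for HSPB7 and 0.05 for HSPB3. That fit called 0 genes (433 at an unadjusted p under 0.05). Not every library correlated best with its own number. Of 55 pathway genes, 26 changed sign when 1 library was left out and 3 under limma. Depth did not limit the members, as the lowest value rested on 665 counts.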

Other observations

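All 8 subunits of the cytosolic chaperonin, the ring that folds actin and tubulin, had their highest FPKM in Laiwu 5, Yorkshire 3 and Yorkshire 5 (CCT2, CCT3, CCT4, CCT5, CCT6A, CCT7, CCT8 and TCP1), a pattern seen in 6.98% of all tested genes. Their summed level was 347.9, 388.0 and 361.0 FPKM in those libraries and 192.0 to 253.0 in the other 9. The list was written after values of CCT7 and TCP1 were seen, and no subunit passed edgeR's test between the breeds. In the endoplasmic reticulum 2 of 10 chaperones and stress genes had the pattern, HSP90B1 and XBP1, and in mitochondria 2 of 7 chaperones and proteases, the chaperonin pair HSPD1 and HSPE1. These lists too were added after values were seen.

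Genes outside the chaperone families were closest to some members, and were singled out after their values were seen. Breed means were removed over 12 libraries but not over 9. HSPB8 was most like APLP2, an amyloid precursor-like protein, with r = 0.996 over 12 libraries and 0.89 over the 9 other than Laiwu 5, Yorkshire 3 and Yorkshire 5. APLP2 ran from 23.9 to 57.9 FPKM. GADD45A, a gene induced by growth arrest and DNA damage, had r = 0.97 with HSPB8 over 12 libraries but 0.30 over the 9, and ran from 4.18 to 63.0 FPKM. HSPB7 was most like WASHC3 (0.96, and 0.82 over the 9) and PSMA5, a proteasome subunit (0.96, and 0.81 over the 9). HSPB6 was most like CHMP3 (0.92, and 0.89 over the 9), a subunit of the membrane-remodelling ESCRT-III complex. HSPB3 was most like ANKRD1 (0.96, and 0.81 over the 9).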
